A study of Mus musculus with 6 samples.

Results

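The genes described here encode the collagens of perichondrium, bone, tendon and other fibrous tissue, together with the collagen that surrounds chondrocytes. They were chosen by name as 10 of the 15803 genes in the expression table, and all 10 passed the filter on low values, which asked for 1 CPM or more on average over the libraries, CPM being counts of a gene per 1000000 reads of the library. RNA was taken from growth plate cartilage of mouse embryos shortly before birth, as 3 libraries labelled WT and 3 labelled CKO. The WT embryos carried Hnrnpk fl/fl, both copies of Hnrnpk flanked by loxP sites without Cre, and the CKO embryos were Col2a1-Cre;Hnrnpk fl/fl, in which the Col2a1 promoter drives Cre recombinase in cells of the chondrocyte lineage. The floxed alleles were therefore shared by both groups. Cells of the perichondrium, bone or muscle that never used the Col2a1 promoter would keep them unrecombined. The paper reports that the perichondrium also expressed Col2a1, and which of its cells were recombined is not known here. The comparison answers how the collagens outside the cartilage-specific set were expressed when Hnrnpk, an RNA-binding protein, was removed from chondrocytes.

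Collagens are built from 3 chains wound into a triple helix, each chain a long repeat in which glycine returns at the same place in each unit of 3 amino acids. Collagen I (Col1a1 and Col1a2) and collagen III (Col3a1) form the thick fibrils of bone, tendon and skin, and collagen V (Col5a1 and Col5a2) sits inside these fibrils and sets their diameter. Collagen VI (Col6a1, Col6a2 and Col6a3) makes beaded filaments around cells, in cartilage mainly in the pericellular matrix of chondrocytes. Collagens XII and XIV (Col12a1 and Col14a1) lie on the surface of fibrils in tendon, perichondrium and dermis. Growth plate cartilage itself is built mainly on collagens II, IX and XI, so in this tissue much of the collagen I and III message is usually ascribed to the perichondrium and the first bone.

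The repeat that defines the family can be read in the coding sequence. The stretches below are each a whole exon of 54 bp from the principal transcript in GENCODE on GRCm38, and the capitals mark the glycine codon (GGN) that opens each unit of 9 bases. They are shown because they place the fibrillar, filament and fibril-surface chains side by side.
Col1a1 (exon 8 of 51, plus strand, chr11:94939904-94939957): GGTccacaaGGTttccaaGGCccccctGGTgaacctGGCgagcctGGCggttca
Col1a2 (exon 8 of 52, plus strand, chr6:4515481-4515534): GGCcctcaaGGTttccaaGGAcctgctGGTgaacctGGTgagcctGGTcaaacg
Col3a1 (exon 6 of 51, plus strand, chr1:45325360-45325413): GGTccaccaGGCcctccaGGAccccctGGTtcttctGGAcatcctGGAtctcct
Col5a1 (exon 15 of 66, plus strand, chr2:27965251-27965304): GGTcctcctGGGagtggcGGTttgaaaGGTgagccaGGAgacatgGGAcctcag
Col6a1 (exon 9 of 35, minus strand, chr10:76719623-76719676): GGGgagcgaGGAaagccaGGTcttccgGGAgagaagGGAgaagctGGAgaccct
Col14a1 (exon 39 of 48, plus strand, chr15:55472927-55472980): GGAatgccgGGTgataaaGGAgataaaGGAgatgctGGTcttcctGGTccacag

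The length of this repeat followed the classes of the proteins. The longest unbroken run held 338 units in Col1a1 and Col5a1, 339 in Col1a2 and Col5a2 and 344 in Col3a1. It held 87 units in Col6a1 and Col6a2, 45 in Col6a3 and 32 in both Col12a1 and Col14a1. Over 21894 genes with a principal coding transcript the median longest run was 2, and 64 genes, 44 of them named as collagens, had a run of at least 20 units. Exons of exactly 54 bp numbered 21 to 29 in the fibrillar genes and 2 to 4 in the other members. The cytosine share of the coding sequence was 31.4% in Col1a1, 29.5% in Col5a1, 28.1% in Col6a2, 27.5% in Col1a2 and 26.7% in Col6a3. It was 25.9% in Col6a1, 25.8% in Col3a1, 24.3% in Col5a2, 24.0% in Col14a1 and 23.7% in Col12a1, against a median of 25.6% over all genes. The share is given because hnRNP K, the product of Hnrnpk, is known to bind C-rich nucleic acid. Its bearing on expression was not tested.

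The libraries were shallow, with 1183743 to 1379674 reads for WT and 1153871 to 1454094 for CKO, so that 1 read stood for 0.688 to 0.867 CPM. The labelled tissue was checked against 10 chondrocyte markers, whose summed level was 25827 to 31829 CPM in WT and 5826 to 6276 CPM in CKO. Hnrnpk itself overlapped between the groups, at 842, 955 and 944 CPM in WT and 759, 949.9 and 779.98 CPM in CKO, with a log2 fold change of -0.14 (SE 0.15, limma, adjusted p = 0.622). The table gives whole genes and the floxed exons were not analysed here, so the genotypes below are those of the labels. The paper reports loss of the Hnrnpk protein from the CKO growth plate by western blot and immunostaining, in embryos of an earlier stage. A pair of libraries stood apart from their group. Among 5022 genes averaging 20 CPM or more, 544 in CKO 2 and 308 in WT 3 lay over 2-fold from the mean of the other libraries of the group, against 70 to 162 in the other 4. WT 3 was the highest WT library for 9 of the 10 collagens. CKO 2 was the highest CKO library for the 3 collagen VI genes and the lowest for 6 of the 7 others. The labels do not say whether the libraries came from separate embryos, so the p-values measure the spread between these libraries.

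The summed level of the 10 genes was lower in the libraries labelled CKO, and the lack of overlap between the groups rested on Col3a1. The 10 genes summed to 3001, 3716 and 5096 CPM in WT and to 2729.5, 2089.6 and 2591 CPM in CKO, with no overlap between the groups. The group means were 3938 ± 1065 CPM and 2470.1 ± 337 CPM (SD, n = 3 each). Without Col3a1, the most abundant member, the other 9 summed to 1311, 1601 and 2180.4 CPM in WT and to 1339, 1332 and 1245 CPM in CKO, and the groups overlapped. The collagen V genes summed to a mean of 189 ± 23.8 CPM in WT and 223 ± 89.2 CPM in CKO and the collagen VI genes to 426 ± 121 and 477 ± 183 CPM (SD, n = 3 each), both with overlap. In the test of single genes by limma, with a call at an adjusted p under 0.05 over the 12155 genes tested, 2 of the 10 were called lower in CKO, against 2.6% of all genes called lower, and 0 were called higher, against 3.18%. The 2 were Col1a2 and Col5a1, and 5 of the 10 had an unadjusted p under 0.05 against 21.3% of all genes. Every CKO library lay below every WT library for 5 of the 10, against 13.2% of all genes, and every CKO library lay above every WT library for 0 of the 10, against 14.5%. The study's own criterion, a log2 fold change below -1 with an unadjusted p under 0.05, was met by Col1a2 and Col14a1, 2 of the 10, against 5.1% of all genes. The median log2 fold change was -0.33 over the 10 genes and 0.013 over all genes tested. In bulk RNA a smaller number of cells that make a transcript and less transcript in each cell cannot be told apart.

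**Figure D1:**
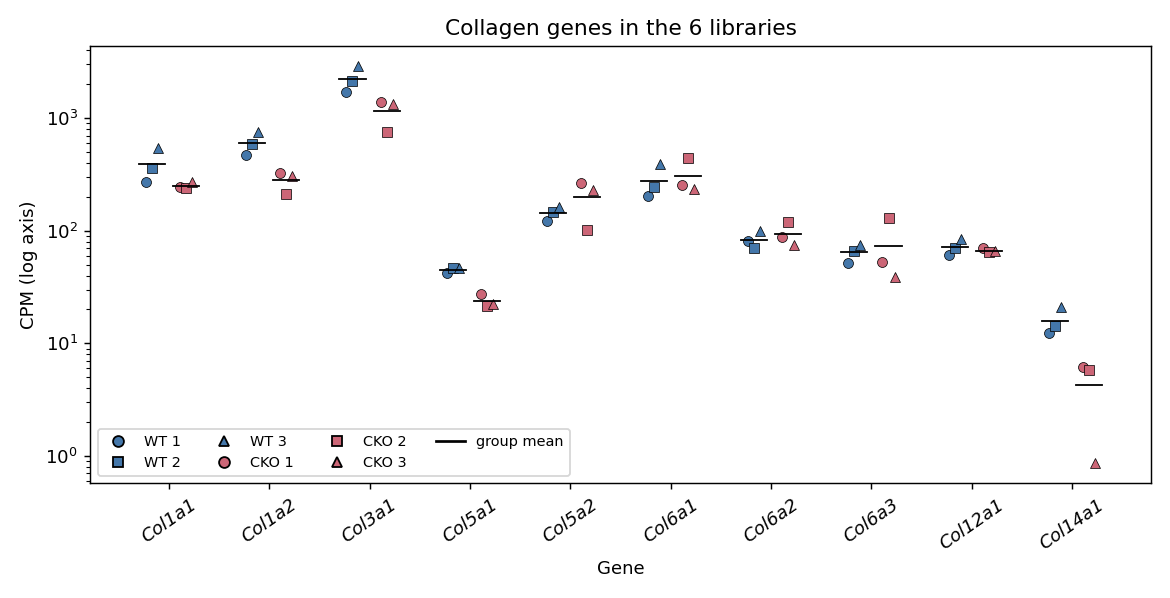
CPM of each collagen gene on a log axis in the 6 libraries, WT in blue and CKO in red, with a mark shape for each replicate number and a black line at the group mean. Col1a2, Col3a1, Col5a1, Col1a1 and Col14a1 were lower in all 3 CKO libraries than in any WT library, and CKO 2 was the highest library of all for Col6a1, Col6a2 and Col6a3.

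Of the chains of collagen I, Col1a2 passed the test and Col1a1 did not. Col1a2 (chromosome 6, 4504814 to 4541544, plus strand), which gives the single α2 chain of the type I trimer, stood at 469.7, 586 and 759 CPM in WT and at 327, 212 and 309 CPM in CKO. All CKO libraries were below all WT libraries, and the level fell from 605 ± 146 to 283 ± 62.0 CPM (SD, n = 3 each). Its log2 fold change was -1.09 (SE 0.22, limma, adjusted p = 0.0191). The call held in 12 of 14 alternative analyses and was lost without WT 2 (adjusted p = 0.0863) or without CKO 3 (adjusted p = 0.0594). Col1a1 (chromosome 11, 94936224 to 94953042, plus strand), which gives the pair of α1 chains, stood at 269.6, 359 and 541 CPM in WT and at 245, 240.4 and 269 CPM in CKO. The groups did not overlap, but WT 1 lay within 1 CPM of the highest CKO library, and the log2 fold change of -0.57 (SE 0.23) did not pass the test (limma, adjusted p = 0.179). No alternative brought Col1a1 past the threshold.

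Within each library the reads of Col1a1 per read of Col1a2 were 0.574, 0.612 and 0.712 in WT and 0.748, 1.13 and 0.868 in CKO. All 3 CKO ratios were above all WT ratios, by 0.52 on the log2 scale, but with 3 libraries a group the smallest exact two-sided permutation p is 0.1. This ratio reached it, with 0.2 after adjustment over the 10 ratios compared, so that none of the ratios could pass the threshold.

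Col3a1 (chromosome 1, 45311538 to 45349706, plus strand), the only gene of collagen III, was the most abundant member in every library. It stood at 1689.5, 2116 and 2915 CPM in WT and at 1391, 757 and 1347 CPM in CKO. The groups did not overlap, CKO 2 was the lowest, and the log2 fold change of -0.96 (SE 0.26) lay just outside the threshold (limma, adjusted p = 0.0576). It passed without CKO 2 (adjusted p = 0.0485), with CPM scaled by trimmed mean of M values (TMM) factors (adjusted p = 0.0490) and with DESeq2 on the recovered reads (adjusted p = 0.00829). An annotated transcript of Gm47302 overlaps its exons on the same strand, and reads of the overlap could not be assigned apart.

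Across the 6 libraries Col3a1 and Col1a2 followed each other most closely of the members. Their log2(CPM + 1) values, each centred on the gene's own mean, differed by a root mean square of 0.117, and among the 5022 genes averaging 20 CPM or more only Nupr1, a stress-induced chromatin protein, was nearer to Col3a1 (0.114). Col1a2 had Nupr1 (0.0909), Il11ra1, a receptor for interleukin 11 (0.0991), and Golgb1, a Golgi matrix protein (0.115), ahead of Col3a1. Nearest to Col1a1 were Abhd14b (0.0700), the vesicle coat subunit Copa (0.0782) and Tlcd1 (0.101). Only 6 libraries enter this measure and the group difference is part of it, so it is a description.

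The upstream sequences of these genes were compared because Col1a2 and Col3a1 ran together while Col6a1 did not. RefSeq on GRCm38.p6 gave a start site for 6 of the 10 members, and the 250 bases before it are printed 5′ to 3′ on the gene's strand, with CCCTCCC or its reverse complement GGGAGGG in capitals. This C-rich string was chosen after the expression values were known, because hnRNP K is known to bind C-rich strands.
Col1a2 (chr6:4505368-4505617, plus strand): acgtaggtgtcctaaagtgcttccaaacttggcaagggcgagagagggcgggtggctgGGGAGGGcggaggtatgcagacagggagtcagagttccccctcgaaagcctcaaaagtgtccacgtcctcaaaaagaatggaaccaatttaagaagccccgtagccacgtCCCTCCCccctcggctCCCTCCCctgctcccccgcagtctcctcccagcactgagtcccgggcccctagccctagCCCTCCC
Col3a1 (chr1:45311288-45311537, plus strand): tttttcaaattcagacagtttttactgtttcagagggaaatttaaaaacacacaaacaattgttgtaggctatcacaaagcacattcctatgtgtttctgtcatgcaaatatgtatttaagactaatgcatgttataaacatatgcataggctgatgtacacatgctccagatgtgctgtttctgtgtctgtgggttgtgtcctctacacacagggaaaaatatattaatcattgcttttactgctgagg
Col6a1 (chr10:76726045-76726294, minus strand): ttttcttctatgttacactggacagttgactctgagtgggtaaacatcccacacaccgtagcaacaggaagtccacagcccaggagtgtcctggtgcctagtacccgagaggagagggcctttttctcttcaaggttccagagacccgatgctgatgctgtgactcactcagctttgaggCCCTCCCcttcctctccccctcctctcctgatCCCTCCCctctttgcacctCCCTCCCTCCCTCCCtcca

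These windows were unlike each other. They end at the RefSeq start site, which is not always the start of the gene in GENCODE. The Col1a2 window lies inside its gene, which starts at 4504814. The window of Col6a1 and 1 of the 2 windows of Col6a2 overlap their genes. Which strings are found depends on the start site used. CCCTCCC on either strand, overlapping matches counted, occurred 4 times before Col1a2, 5 times before Col6a1, 2 times before Col5a1, 2 and 1 times in the 2 windows of Col6a2, 1 time before Col6a3 and 0 times before Col3a1, so that 5 of the 6 members with a window held it, and 19.7% of all 32851 RefSeq windows of this length held it at least once. The base composition differed as widely, with 62.0% G and C before Col1a2 and 35.2% before Col3a1, against a median of 52.4%. Every member window that held CCCTCCC lay above this median, at 56.0% to 76.4%. The share of 19.7% was not matched for base composition, so the comparison cannot show that the string is enriched. The string TATAA on either strand, found in 22.8% of all windows, occurred before Col3a1 and before none of the other 5 members with a window. CCAAT, found in 33.8%, occurred before Col1a2 and before none of the other 5. Col1a2 and Col3a1 shared none of these 3 strings in these windows, and whether upstream sequence bears on their similar expression was not tested.

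Of the collagen V chains, Col5a1 fell and Col5a2 overlapped between the groups. Col5a1 (chromosome 2, 27886425 to 28039514, plus strand), the chain that limits assembly of the common type V trimer, stood at 42.0, 46.5 and 46.5 CPM in WT and at 27.5, 21.7 and 22.5 CPM in CKO. All CKO libraries were lower and the replicates of both groups were close, at 45.0 ± 2.57 against 23.9 ± 3.16 CPM (SD, n = 3 each), with a log2 fold change of -0.89 (SE 0.21, limma, adjusted p = 0.0391). The call rested on 58, 62 and 55 reads in WT and 40, 30 and 26 in CKO, and was lost in 7 of 14 alternatives, among them each WT library left out and DESeq2 (adjusted p = 0.0759). Genes annotated on the other strand overlap its exons, and the strand setting of the counting is not given in the sources used here.

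Col5a2 (chromosome 1, 45374321 to 45503282, minus strand), the neighbour of Col3a1 and the second chain of that trimer, stood at 121, 146 and 164 CPM in WT and at 268, 102 and 229 CPM in CKO. CKO 1 and CKO 3 were above all WT libraries and CKO 2 below them, and the log2 fold change was 0.37 (SE 0.31, 95% confidence interval -0.33 to 1.06, limma, adjusted p = 0.549). Without CKO 2 it was 0.79 (adjusted p = 0.0139), and in none of the other alternatives was any of the 10 genes called higher. Reads of Col5a1 per read of Col5a2 were 0.347, 0.320 and 0.284 in WT and 0.103, 0.213 and 0.0985 in CKO. Every CKO ratio was below every WT ratio, CKO 2 included, by 1.29 on the log2 scale (difference CKO minus WT -1.29, exact two-sided permutation p = 0.1, adjusted 0.2). The genes nearest to Col5a2 in pattern were Chd6 (0.113), Ddah2 (0.121) and Thbs2 (0.131), a matricellular protein that binds collagen fibrils, and those nearest to Col5a1 were Dmtf1 (0.0839), Zfyve21 (0.0991) and Plcd1 (0.102).

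**Figure D2:**
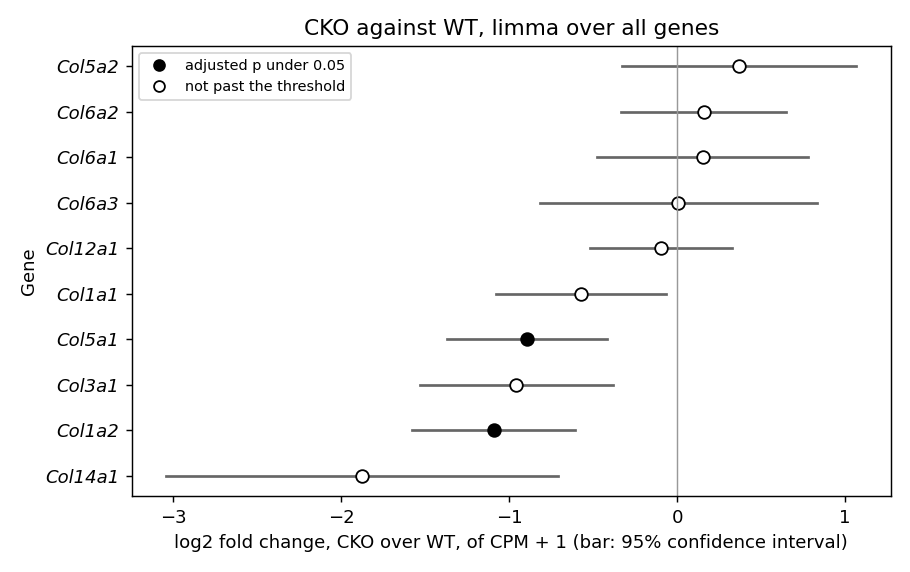
Log2 fold change of CPM + 1, CKO over WT, for each collagen gene, with bars for the 95% confidence interval from limma and filled points for an adjusted p under 0.05. Col1a2 at -1.09 and Col5a1 at -0.89 are filled, Col14a1 has the widest interval, and the 3 collagen VI genes lie between 0.0074 and 0.16.

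For collagen VI no difference between the groups passed the test, and single libraries moved the values. Col6a1 (chromosome 10, 76708792 to 76726168, minus strand) stood at 203, 242 and 389 CPM in WT and at 254, 439 and 235 CPM in CKO. Col6a2 (chromosome 10, 76595762 to 76623630, minus strand), its neighbour, stood at 80.5, 70.5 and 99.7 CPM in WT and at 88.7, 119 and 74.5 CPM in CKO. Col6a3 (chromosome 1, 90765923 to 90843971, minus strand), the largest chain, stood at 52.2, 66.0 and 75.2 CPM in WT and at 52.3, 128 and 39.0 CPM in CKO. CKO 2 was the highest of the 6 libraries for all 3 chains, and the other CKO libraries lay within or below the WT range.

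The log2 fold changes were 0.15 for Col6a1 (95% confidence interval -0.48 to 0.78, limma, adjusted p = 0.805), 0.16 for Col6a2 (-0.33 to 0.65, adjusted p = 0.733) and 0.0074 for Col6a3 (-0.82 to 0.83, adjusted p = 0.994). Without CKO 2 all 3 took the other sign, at -0.13, -0.024 and -0.49, and Col6a3 also did so with CPM scaled by TMM factors (-0.037) or over all genes but the 20 most abundant (-0.018). Without WT 3, the highest WT library for all 3, the log2 fold change of Col6a1 was 0.42. Reads of Col6a1 per read of Col6a2 were 2.52, 3.44 and 3.91 in WT and 2.87, 3.68 and 3.15 in CKO, and reads of Col6a3 per read of Col6a1 were 0.257, 0.272 and 0.193 in WT and 0.205, 0.293 and 0.166 in CKO. Both ratios overlapped between the groups (exact two-sided permutation p = 1 and p = 0.7, n = 3 each).

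The genes nearest in pattern to Col6a3 were Hnrnpl (0.0401), an RNA-binding relative of Hnrnpk, Dnmt1, the maintenance DNA methyltransferase (0.118), and Pdlim7 (0.121). Those nearest to Col6a1 were Fam3c (0.123), the histone methyltransferase Nsd1 (0.124) and Dohh (0.139), and those nearest to Col6a2 were the endosomal GTPase Rab5c (0.0606), Rheb, a small GTPase upstream of mTORC1 (0.0666), and Ahcy (0.0667). No gene of these lists appears for another chain. Among the members each collagen VI chain had another collagen VI chain as its nearest, at 0.215 between Col6a1 and Col6a2 and 0.288 between Col6a3 and Col6a1.

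Of the fibril-surface collagens, Col12a1 overlapped between the groups and Col14a1 did not, and neither passed the test. Col12a1 (chromosome 9, 79598991 to 79718831, minus strand) stood at 60.9, 70.5 and 84.5 CPM in WT and at 70.1, 64.2 and 65.9 CPM in CKO. The CKO values lay inside the WT range, with a log2 fold change of -0.095 (95% confidence interval -0.52 to 0.33, limma, adjusted p = 0.818), and its nearest genes were Atrx (0.0597), Gle1 (0.0699) and Timm10b (0.0742). Col14a1 (chromosome 15, 55307750 to 55520803, plus strand) stood at 12.3, 14.3 and 21.1 CPM in WT and at 6.19, 5.77 and 0.867 CPM in CKO. It was lower in all CKO libraries, on 17, 19 and 25 reads against 9, 8 and 1. Its log2 fold change was -1.88 (SE 0.53, limma, adjusted p = 0.0658), the 109th lowest of the 12155 genes tested, and it passed the test only without CKO 2 (adjusted p = 0.0301). Without CKO 3, the library with 1 read, the log2 fold change was -1.24. At this depth its level in CKO is known only roughly. Its nearest genes were Gpt2 (0.290), Cspg4, a proteoglycan that binds collagen VI (0.337), and the RNA helicase Ddx17 (0.434), less close than for any other member.

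Reads of Col12a1 per read of Col14a1 were 4.94, 4.95 and 4 in WT and 11.3, 11.1 and 76.0 in CKO. The last value rests on 1 read of Col14a1, with an exact 95% counting interval of 13.2 to 3041. All CKO ratios were above all WT ratios, with exact two-sided permutation p = 0.1 (adjusted 0.2). Reads of Col12a1 per read of Col1a1 were also higher in each CKO library, at 0.287, 0.267 and 0.245 against 0.226, 0.197 and 0.156 (exact two-sided permutation p = 0.1, adjusted 0.2).

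**Figure D3:**
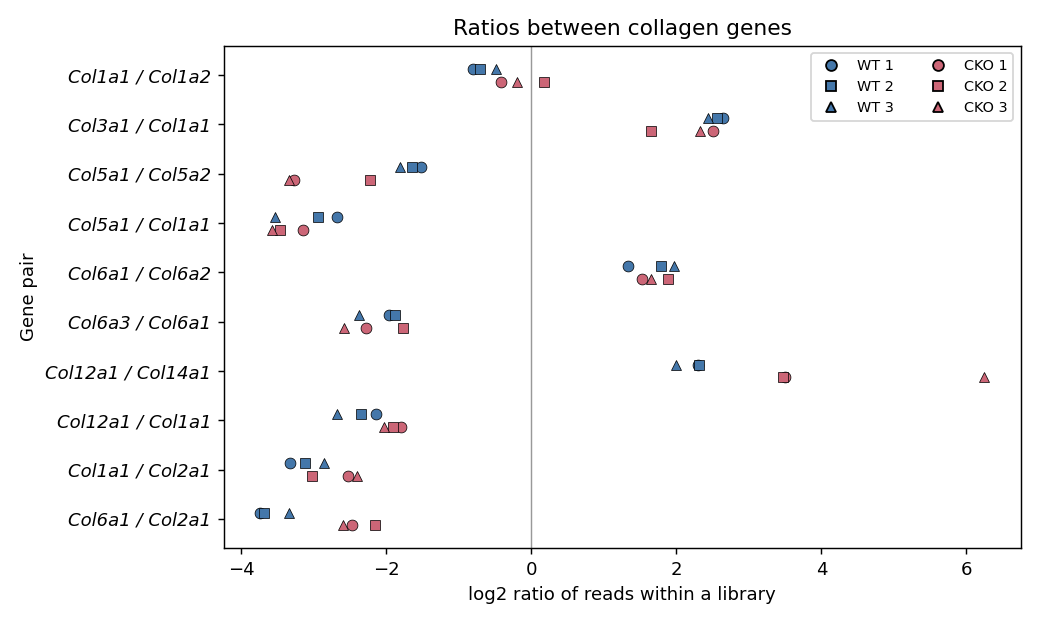
Log2 ratio of the reads of a pair of collagen genes within each library, for the 10 pairs compared, WT in blue and CKO in red with a mark shape for each replicate number. Col1a1 / Col1a2, Col5a1 / Col5a2, Col12a1 / Col14a1, Col12a1 / Col1a1 and Col6a1 / Col2a1 do not overlap between the groups, and the isolated CKO 3 point of Col12a1 / Col14a1 rests on 1 read of Col14a1.

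The order of the levels per kilobase of principal transcript was nearly the same in both groups. In WT it ran from Col3a1 (403 ± 112 CPM per kb, SD, n = 3) through Col1a2 (113 ± 27.3), Col6a1 (67.9 ± 24.0), Col1a1 (65.7 ± 23.3), Col5a2 (21.7 ± 3.24), Col6a2 (21.2 ± 3.75), Col6a3 (7.16 ± 1.29), Col12a1 (6.25 ± 1.03) and Col5a1 (5.35 ± 0.306) to Col14a1 (2.80 ± 0.814). Ranges of neighbours did not overlap between Col3a1 and Col1a2, Col1a1 and Col5a2, Col6a2 and Col6a3, and Col5a1 and Col14a1, and overlapped for the other 5 pairs. In CKO Col6a1 (75.5 ± 27.4 CPM per kb) came before Col1a2 (52.9 ± 11.6) and Col1a1 (42.4 ± 2.57), with ranges that overlapped between neighbours of these 3. The other ranks were the same, and the ranges of Col12a1 (5.80 ± 0.265) and Col5a1 (2.84 ± 0.376) no longer overlapped.

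The make-up of the collagen reads was similar in the 3 WT libraries, and CKO 2 stood apart in CKO. Collagen III took 56.3%, 56.9% and 57.2% of the reads of the 10 genes in WT, and 50.9%, 36.2% and 52.0% in CKO. Collagen VI took 11.2%, 10.2% and 11.1% in WT and 14.5%, 32.8% and 13.4% in CKO. The CKO 2 share of collagen VI had a 95% Wilson interval of 31.2% to 34.6%, and the intervals of CKO 1 (13.4% to 15.6%) and CKO 3 (12.3% to 14.7%) also began above the WT 1 interval's upper bound of 12.2%. Collagen I took 24.6% to 25.5% in WT and 20.96% to 22.3% in CKO, and collagen V took 4.13% to 5.43% in WT and 10.8%, 5.91% and 9.70% in CKO. Collagens XII and XIV together took 2.07% to 2.44% in WT and 2.58% to 3.35% in CKO. For I, III, V, VI and the sum of XII and XIV, the 3 CKO shares all lay on the same side of the WT shares. They were lower for I and III and higher for the others. Within the sum of XII and XIV, Col12a1 was higher in every CKO library, at 2.54% to 3.07% against 1.66% to 2.03% in WT. Col14a1 was lower in every CKO library, at 0.0334% to 0.276% against 0.384% to 0.414% in WT. Shares of a fixed total move against each other, and the intervals cover counting error only.

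**Figure D4:**
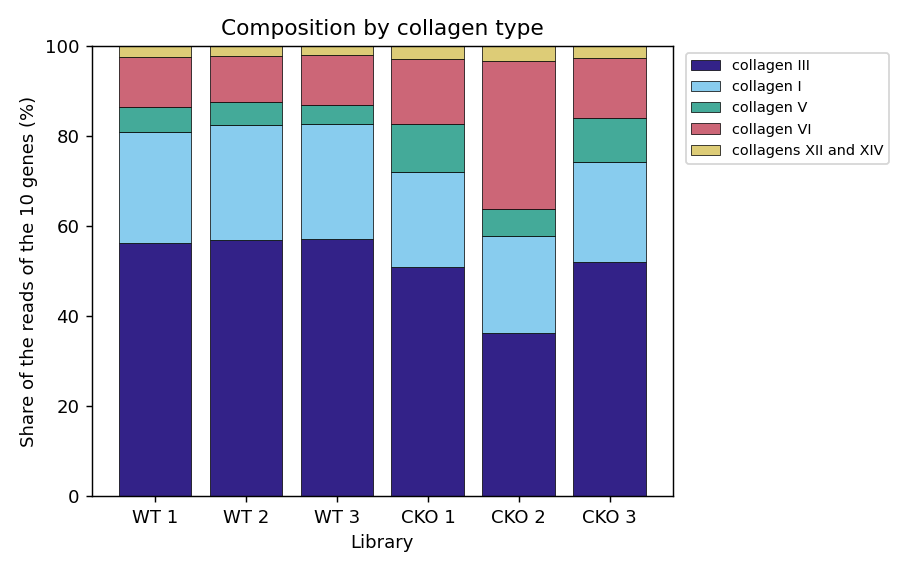
Stacked bars of the share of the reads of the 10 genes taken by each collagen type in each library, in percent. The 3 WT bars are alike with 56.3% to 57.2% for collagen III, and in CKO 2 collagen VI takes 32.8%.

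CKO 2 also differed from the other CKO libraries outside the collagens. Genes of the osteoblast list without Spp1, its most abundant member, summed to 1089 and 1152 CPM in CKO 1 and CKO 3 but to 146 CPM in CKO 2, against 204 to 238 CPM in WT. In the same library Myog, a myogenic transcription factor, stood at 179 CPM against 13 to 15.1 in the other CKO libraries, but the muscle list without Myog summed to 105, 125 and 107 CPM in CKO 1, CKO 2 and CKO 3. The erythroid gene Hba-a2 stood at 28.1 CPM in CKO 2 against 0.688 to 2.60, while the other red blood cell genes together were at 1.38, 0.722 and 3.47 CPM in these libraries. The part of this in the collagen VI levels was not tested.

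The members were also set against collagen II. Col2a1, the main collagen of cartilage, stood at 2720.2, 3133 and 3944 CPM in WT and at 1411, 1950.2 and 1426.5 CPM in CKO (log2 fold change -1.03, SE 0.19, limma, adjusted p = 0.0119). Reads of Col6a1 per read of Col2a1 were 0.0746, 0.0774 and 0.0987 in WT and 0.180, 0.225 and 0.165 in CKO, higher in every CKO library (exact two-sided permutation p = 0.1, adjusted 0.2). Reads of Col1a1 per read of Col2a1 were 0.0991, 0.114 and 0.137 in WT and 0.173, 0.123 and 0.188 in CKO, and overlapped (exact two-sided permutation p = 0.2, adjusted 0.286).

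Of the other collagen genes listed, 23 were tested, of which 8 were called lower in CKO and 0 higher, with a median log2 fold change of -1.03. Over all genes tested 2.6% were called lower and 3.18% higher. The cartilage collagens Col9a1 (log2 fold change -2.50, SE 0.22), Col9a2 (-2.57, SE 0.27), Col9a3 (-3.08, SE 0.43), Col11a1 (-1.27, SE 0.21) and Col11a2 (-2.90, SE 0.35) fell together with Col2a1, Col27a1 and the weakly expressed Col26a1 (limma, adjusted p from 0.000358 for Col9a1 to 0.0382 for Col26a1). Col9a3 stood at 302, 313 and 473 CPM in WT and at 28.9, 98.2 and 24.3 CPM in CKO. The minor fibrillar chain Col5a3 was near the floor of 3 reads, at 0 to 4.13 CPM.

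The machinery that folds and exports procollagen was partly lower. Of 23 tested genes 5 were called lower and 0 higher, against 2.6% and 3.18% of all genes, with a median of -0.66. Kdelr2, a receptor that returns chaperones to the endoplasmic reticulum, fell from 531, 409.7 and 558 CPM to 153, 233 and 167 CPM (log2 fold change -1.44, SE 0.20, limma, adjusted p = 0.00356). Plod1, a lysyl hydroxylase, fell from 286, 294 and 347 CPM to 99.7, 132 and 115 CPM (log2 fold change -1.41, SE 0.17, limma, adjusted p = 0.00196), and Fkbp14, a prolyl isomerase, by 1.43 on the log2 scale (SE 0.36, adjusted p = 0.0436). P4hb, the shared subunit of prolyl 4-hydroxylase, and Plod2 made up the other calls. Serpinh1, the collagen chaperone HSP47 and the most abundant gene of the list, stood at 7506, 8153 and 6871 CPM in WT and at 5678, 3259 and 5783 CPM in CKO, without overlap and not past the test (log2 fold change -0.66, SE 0.22, limma, adjusted p = 0.110).

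Processing and crosslinking enzymes went both ways, with 2 of 11 tested genes called higher, 1 lower and a median of 0.12. The shares over all genes were 3.18% higher and 2.6% lower. Loxl4 rose from 89.2, 113 and 101 CPM to 339, 179.7 and 317 CPM (log2 fold change 1.41, SE 0.24, limma, adjusted p = 0.00935), and Loxl3 from 123, 122 and 239.9 CPM to 331, 504 and 321 CPM (1.29, SE 0.28, adjusted p = 0.0244). Both are copper-dependent lysyl oxidases that crosslink collagen and elastin. Pcolce2, an enhancer of C-propeptide cleavage, fell by 1.47 on the log2 scale (SE 0.25, adjusted p = 0.00915), whereas Pcolce, the more abundant enhancer, stood at 1925 to 2009.7 CPM in WT and at 1785, 690.02 and 1833 CPM in CKO (adjusted p = 0.321).

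Of 22 tested genes for proteins that bind fibrils, 4 were called lower and 1 higher, against 2.6% and 3.18% of all genes. Their median was -0.52. The small leucine-rich proteoglycans Omd (log2 fold change -2.09, SE 0.37, limma, adjusted p = 0.0107), Dcn (-1.89, SE 0.27, adjusted p = 0.00429) and Fmod (-1.28, SE 0.26, adjusted p = 0.0222) fell, Dcn from 1025, 1078 and 1312 CPM to 389, 183 and 396 CPM. Fn1, the fibronectin gene, rose from 929, 1071 and 1496 CPM to 2796, 1778 and 2300.1 CPM (0.98, SE 0.21, adjusted p = 0.0267). None of the 12 tested collagen receptors and none of the 8 tested collagenolytic proteases passed the test with limma. In these lists 1 and 2 genes had an unadjusted p under 0.05, against 21.3% of all genes. In lists this short 0 calls lie near the share over all genes, 3.18% higher and 2.6% lower. The most abundant receptor gene, Itgb1, overlapped between the groups (log2 fold change -0.18, adjusted p = 0.788). The most abundant protease gene, Mmp13, stood at 2155 and 2301 CPM in CKO 1 and CKO 3 but at 377 CPM in CKO 2, against 257 to 650.5 CPM in WT. Its log2 fold change was 1.81 (SE 0.61, limma, unadjusted p = 0.0139, adjusted p = 0.118). Of the proteases only this gene met the study's criterion for higher expression. The paper likewise reports it as upregulated by that criterion, which uses no adjusted p.

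**Figure D5:**
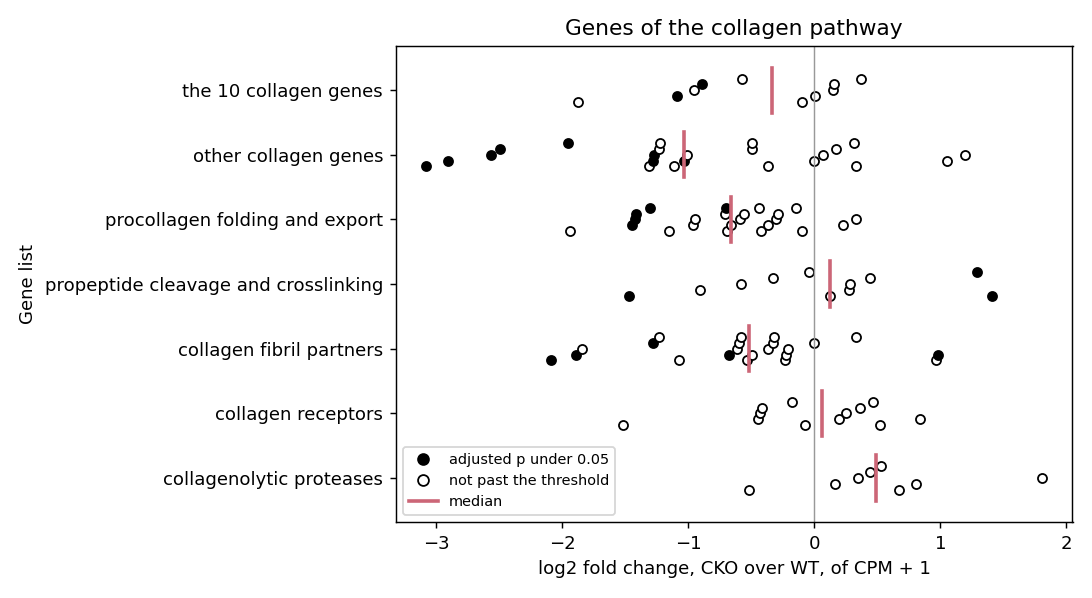
Log2 fold change of CPM + 1, CKO over WT, of each tested gene of the collagen pathway by list, filled where the adjusted p from limma was under 0.05, with the list's median in red. The 10 collagen genes have a median of -0.33, the other collagen genes -1.03 and the collagenolytic proteases 0.49.

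Markers of the tissues that usually make these collagens gave mixed values, and their part in the results above was not tested. The marker counts in this and the next paragraph stand beside 3.18% of all genes tested called higher and 2.6% called lower. Of 15 tested genes of fibroblasts and perichondrium 0 were called higher and 1 lower, with a median of 0.17. The summed level of the 20 genes in this list was 1531 to 2373 CPM in WT and 1244 to 1337 CPM in CKO, and without Dlk1, an imprinted Notch-like ligand that fell by 1.55 on the log2 scale (SE 0.37, limma, adjusted p = 0.0385), it was 704 to 1089 CPM and 549.99 to 1111 CPM. The 9 tendon genes summed to 651 to 984 CPM in WT and 253 to 434 CPM in CKO, with 2 of 8 tested called lower, Fmod and the serine protease Htra3 (-1.63, SE 0.38, adjusted p = 0.0359), while Scx, the tendon transcription factor, was at 0 to 2.60 CPM. Without Fmod the tendon sum was 81.0 to 242 CPM and 82.3 to 85.2 CPM. The median log2 fold change of the 8 tested tendon genes was -0.078, with 3 above 0 and 5 below. Egr1, also of this list, was higher in every CKO library, at 0 to 9.42 CPM in WT and 15.6 to 22.4 CPM in CKO. It did not pass the test (2.37, SE 0.72, limma, adjusted p = 0.0857).

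Of 9 tested osteoblast genes 1 was called higher, Spp1, the osteopontin gene (2.84, SE 0.40, limma, adjusted p = 0.00403). Its level put the list's sum at 1276 to 3974 CPM in WT and at 12023 to 13196 CPM in CKO. The list's median was 0.94, with 7 of the 9 above 0 and 2 below. The study's criterion, with a log2 fold change above 1, was met by 3 of the 9, against 644 of all 12155 genes. Without Spp1 the sums overlapped, at 204 to 238 CPM in WT and 146 to 1152 CPM in CKO. Osteopontin is also made by hypertrophic chondrocytes. Of 10 tested genes of that list 1 was called higher, again Spp1, and the median was 0.40. For other cells in the sample, 1 of 9 macrophage and osteoclast genes was called higher (Cd68, from 6.75 to 11.8 CPM in WT to 46.9 to 76.3 CPM in CKO), while the general leukocyte gene Ptprc was at 0 in 5 of 6 libraries and Lyz2, the most abundant of the list, overlapped. All 9 tested genes of this list had a log2 fold change above 0, with a median of 0.93, and the list without Lyz2 summed to 104 to 122 CPM in WT and 186 to 199 CPM in CKO. The endothelial and pericyte genes (0 of 5 called, 41.3 to 60.8 against 49.8 to 69.5 CPM in all, most of it Acta2), the red blood cell genes (0 of 2) and the muscle genes (0 of 9, 51.0 to 239.9 against 120 to 304 CPM) overlapped, with Cdh5 and Pecam1 at 0 to 0.867 CPM. Of 5 tested epidermis genes 3 were called higher, Klk10 (3.93, SE 0.35, adjusted p = 0.000463), Sbsn (3.78, SE 0.55) and Perp (3.05, SE 0.29), and the list summed to 60.0 to 89.2 CPM in WT and 513 to 1039 CPM in CKO, while the keratinocyte genes Krt1, Krt15, Krtdap and Lor were at 0 to 0.867 CPM and Krt10 overlapped at 16.9 to 39.1 and 31.2 to 44 CPM.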

How the data were processed

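Growth plate RNA was measured in 6 libraries (3 WT, 3 CKO). The authors deposited CPM per gene and library, made from a stranded mRNA kit. The submitters' processing notes name cutadapt 2.5, HISAT2 and featureCounts 1.6.3, and the genome build, annotation and strand setting are not given in the sources used here. All 6 columns of values were matched to a sample, and 0 were left unmapped. All CPM values were whole multiples of 1 read (100.0%, tolerance 0.01 reads), which gave the recovered reads and depth.

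The 12155 genes averaging 1 CPM or more were fitted as log2(CPM + 1) on genotype with limma 3.58.1 in R 4.3.3, with a mean-variance trend, the Benjamini-Hochberg adjustment and a call at an adjusted p under 0.05. Fold changes on this scale understate those of low genes. Limma was the main test because the deposited values are CPM, and the paper's criterion names no test. Ratios were compared by exact permutation over libraries. edgeR 4.0.16 (quasi-likelihood, TMM or RLE factors) and DESeq2 1.42.0 served as alternatives on the recovered reads, beside a pseudocount of 0.1, no filter, each library left out, other scalings, a replicate block and, added after seeing the data, a sum without Col3a1. Over all genes limma called 387 higher and 316 lower in CKO, and edgeR with TMM called 374 and 363 of 7704 tested. The fits were tested on simulated counts with 200 changed genes. Positions and transcript lengths came from GENCODE M21 (GRCm38), upstream sequences from RefSeq (GRCm38.p6), and near-identical copies were sought with BLAST 2.17.0 (at least 90% identity over 300 bp), which found 0 for each member.

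The members and lists were chosen with earlier results of these data known. The genes named are the 10 members, Hnrnpk, up to 3 called genes of each list in each direction by log2 fold change with the most abundant gene of the list, and the 3 genes nearest in pattern to each member. Other genes were named after their values were seen.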

Additional observations from a re-analysis of the deposited data

How the results depend on the processing

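The number of collagen genes called lower was 2, and 1 with the replicate block, 3 with TMM-scaled CPM, 2 with edgeR and DESeq2, and 0 at an adjusted p under 0.01. It ran from 0 to 4 when a library was left out, with 0 without WT 2 or CKO 3 and 4 without CKO 2, where 1 was also called higher (otherwise 0). Deviations of same-numbered libraries from their group means correlated at 0.038, -0.13 and -0.10. With 3 libraries a group these values cannot show whether same-numbered libraries were paired. The paper states that mice were compared with littermates, and the labels name no litter. Under the block Col5a1 lost its call (adjusted p = 0.105) and Col1a2 kept it (0.0337). The cause of these shifts was not tested. Log2 fold changes near 0 took the other sign in places, and leaving out a library gave -0.13 to 0.42 for Col6a1 (negative without WT 1, -0.048, and CKO 2), -0.024 to 0.31 for Col6a2 (negative without CKO 2), -0.49 to 0.36 for Col6a3 (negative without WT 1, -0.13, and CKO 2) and -0.21 to 0.025 for Col12a1 (positive without WT 3). Col6a3 was also negative with TMM-scaled CPM (-0.037) and without the 20 most abundant genes in the total (-0.018). Acta2 gave -0.22 to 0.30 without a library, -0.022 with TMM and -0.0034 without the 20 most abundant genes, Itgb1 -0.60 to 0.040 without a library, and Lyz2 -0.15 to 1.04 without a library, -0.21 with edgeR TMM and RLE and -0.20 with DESeq2. Leaving out a library gave a log2 ratio difference of -0.19 to 0.13 for Col6a1/Col6a2 and -0.37 to 0.042 for Col6a3/Col6a1. Scalings moved the median of all genes by under 0.1 on the log2 scale. In a sum without Col3a1, chosen after seeing the data, the means were 1697 CPM in WT and 1305 CPM in CKO, with overlap. Col14a1 had the fewest reads of the 10, 1 to 25 a library.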
